A study of Mus musculus with 15 samples.

Results

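The 8 genes described here encode proteins of the junctions between neighbouring Sertoli cells that form the blood-testis barrier. They were chosen by name, as the rows of the expression table whose Entrez Gene ID maps to Ocln, Cldn3, Cldn11, F11r, Tjp1, Cdh2, Ctnnb1 and Gja1, and all 8 were found among 23510 genes. The rule uses names and no threshold on their values. RNA of mouse testis was sequenced in 15 libraries, in 5 groups of 3. All mice were of the ICR strain, an outbred stock, and the study's methods give their age as 5 weeks at injection and 10 days from virus to the RNA measurement. In groups M1, M3 and M5 the testis received lentivirus with a mix of 3 short hairpin RNAs (shRNAs) against muscarinic acetylcholine receptor M1, M3 or M5, and in MNC it received the virus with a control shRNA. Con is labelled only as control, and whether these testes were injected is not given in the sources used here. The virus was injected into the whole testis, so the knockdown was not restricted to 1 cell type. The labels do not say that the 3 libraries of a group came from separate mice, and p-values measure the spread between these libraries only.

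The blood-testis barrier divides the seminiferous epithelium, so that meiotic and later germ cells develop behind it. Tight junctions seal the space between Sertoli cells, adherens junctions tie their actin skeletons together, and gap junctions join their cytoplasm through channels. These junctions open and close as germ cells move across them during each cycle of the epithelium. Within the tight junction, occludin (Ocln), claudin-3 (Cldn3), claudin-11 (Cldn11) and junctional adhesion molecule A (F11r) span the membrane, and ZO-1 (Tjp1) is the scaffold that links them to actin. N-cadherin (Cdh2) and beta-catenin (Ctnnb1) belong to the adherens junction, and connexin 43 (Gja1) builds the gap junction.

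The values are FPKM, that is fragments per kilobase of transcript scaled to the mapped fragments of the library, listed to 2 decimals, and the number of reads behind each library is not given. The tissue label was checked against markers of testis cells: all 16 Sertoli cell markers had a mean of at least 1 FPKM and summed to between 759 and 1195 FPKM, and the 8 Leydig cell markers summed to between 665 and 3220 FPKM. The label text on RNA extraction speaks of sperm, whereas titles and tissue labels give testis. The targeted receptors were listed at 0.43 FPKM or less in every library (Chrm1 0.06 to 0.17, Chrm3 0.01 to 0.11, Chrm5 0.19 to 0.43), a level at which knockdown could not be checked. Chrm5 was listed at 0.37, 0.22 and 0.37 FPKM in M5 and at 0.43, 0.23 and 0.43 FPKM in MNC. For protein, the study reports less M5 receptor in testis after M5 knockdown, by immunofluorescence and Western blot. Library M5 replicate 3 stood apart from the other libraries of its group, with the highest sums of Sertoli cell, Leydig cell and macrophage markers among the 15 libraries (1195, 3220 and 184.3 FPKM), and results that rest on it are given with and without it. No M3 library was closest to its own group. Across 14514 genes, M3 replicate 3 was closest to M5 replicate 2 (r = 0.9841), M3 replicate 1 to M1 replicate 3 (0.9878) and M3 replicate 2 to M1 replicate 1 (0.9886). M1 replicate 3 and MNC replicate 2 were closest to each other (r = 0.9912). In the labels, 1 description goes against its title: that of M5 replicate 2 points to the data column of replicate 1, and columns were therefore matched by title.

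The level of the 8 genes differed widely (on the FPKM scale, which is per length). Cldn11 was the highest of them, with a mean of 47.59 FPKM over the 15 libraries, above 84.5% of the 14514 genes tested. Ctnnb1 followed at 39.64 FPKM. Cldn3, Tjp1, Cdh2 and Gja1 lay between 15.62 and 23.94 FPKM, and F11r at 10.25 FPKM. Ocln was the lowest at 1.835 FPKM, above 12.6% of the genes tested. The spread within groups was smallest for Tjp1, with a coefficient of variation of 6.09%, and largest for Cdh2 at 21.9%.

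**Figure D1:**
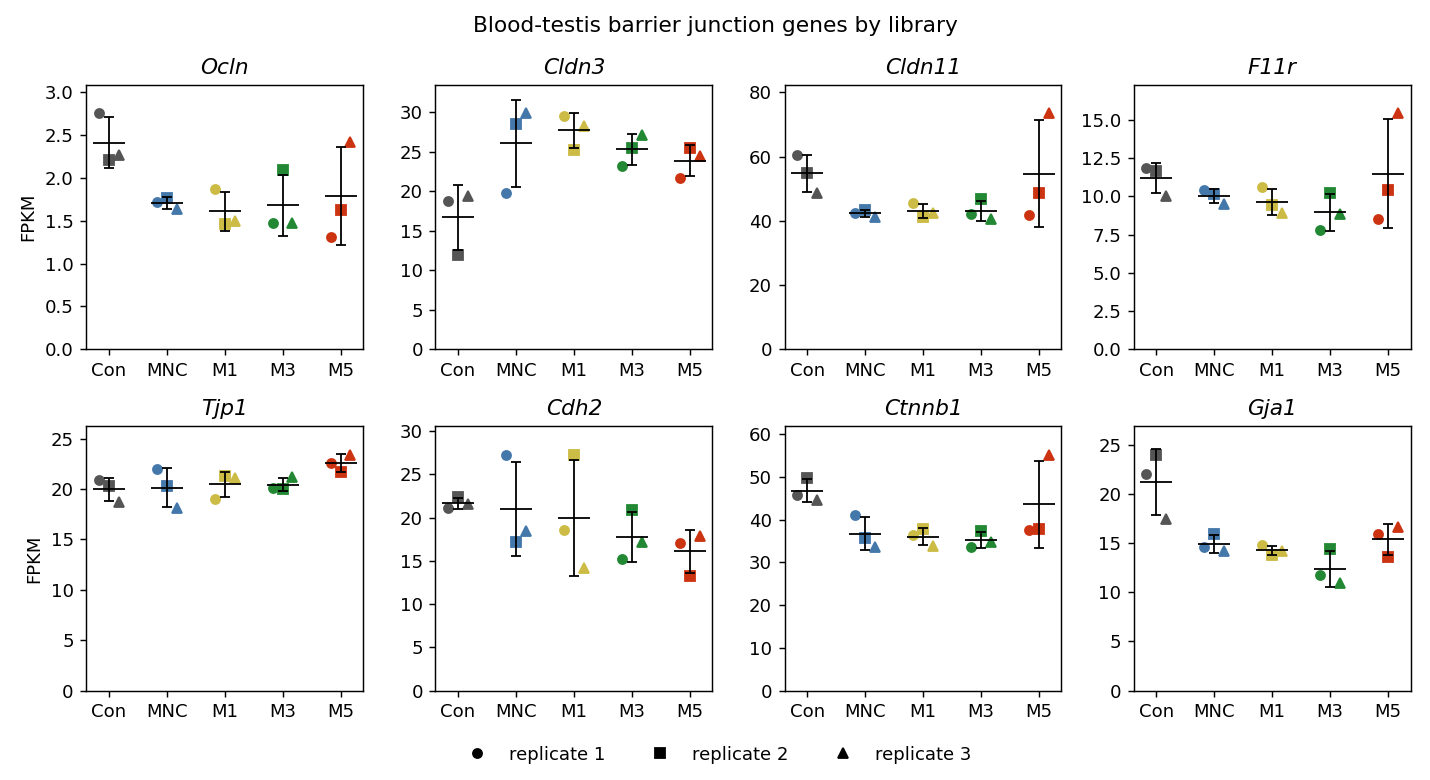
FPKM of the 8 junction genes (y axis, from 0, each gene on its own scale) in the 15 libraries by group (x axis). Symbols mark the replicate, and the bar and whiskers are the group mean and SD (n = 3); Gja1 lies lower, and Cldn3 higher, in all 12 libraries of MNC, M1, M3 and M5 than in the 3 Con libraries, and M5 replicate 3 is the highest library for Cldn11, F11r, Ctnnb1 and Tjp1.

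Connexin 43, the channel protein that couples Sertoli cells to each other and to germ cells, was lower in every virus group than in Con. Gja1 (chromosome 10, 56377300 to 56390419, plus strand) was listed at 22.05, 23.99 and 17.48 FPKM in Con and at 14.64, 15.92 and 14.20 FPKM in MNC. In M1 it was at 14.77, 13.81 and 14.21 FPKM, in M3 at 11.76, 14.42 and 10.94 FPKM, and in M5 at 15.92, 13.60 and 16.62 FPKM. Every one of the 12 libraries of the virus groups lay below the lowest Con library, M5 replicate 3 only narrowly (16.62 beside 17.48 FPKM). That pattern was shared by 11.5% of all genes tested, and of the 8 junction genes Gja1 alone showed it. The order of means was M3, M1, MNC, M5 and Con, from lowest to highest, and of these neighbours only M5 and Con did not overlap.

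Claudin-11, the claudin that makes up most Sertoli cell tight junction strands, followed with one exception. Cldn11 (chromosome 3, 31149920 to 31164326, plus strand) was listed at 60.43, 55.03 and 48.80 FPKM in Con, at 42.44, 43.41 and 41.34 FPKM in MNC, at 45.48, 41.31 and 42.39 FPKM in M1 and at 42.16, 46.68 and 40.47 FPKM in M3. In M5 it was at 41.78, 48.65 and 73.49 FPKM. Of the 12 libraries of the virus groups, 11 were below all Con libraries and M5 replicate 3 was above them all. Beta-catenin, which binds the tail of cadherins and also carries Wnt signals, had the same exception. Ctnnb1 (chromosome 9, 120933400 to 120960507, plus strand) was listed at 45.82, 49.75 and 44.68 FPKM in Con, at 40.95, 35.68 and 33.58 FPKM in MNC, at 36.32, 37.78 and 33.78 FPKM in M1, at 33.69, 37.23 and 34.72 FPKM in M3 and at 37.54, 37.90 and 55.20 FPKM in M5. Ocln (chromosome 13, 100496504 to 100552718, minus strand), a membrane protein of the tight junction strand, was at 2.75, 2.21 and 2.26 FPKM in Con. It was at 1.72, 1.76 and 1.63 FPKM in MNC, at 1.87, 1.46 and 1.49 FPKM in M1, at 1.47, 2.09 and 1.47 FPKM in M3 and at 1.31, 1.62 and 2.42 FPKM in M5. For Ocln too, 11 of the 12 libraries were below all Con libraries, M5 replicate 3 being the exception. The share of all genes tested with that pattern was not counted.

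Claudin-3, a claudin of newly built tight junctions in the mouse testis, was ordered the other way. Cldn3 (chromosome 5, 134986214 to 134987476, plus strand) was listed at 18.72, 11.98 and 19.46 FPKM in Con and at 19.75, 28.57 and 29.88 FPKM in MNC. It was at 29.58, 25.28 and 28.33 FPKM in M1, at 23.21, 25.52 and 27.16 FPKM in M3 and at 21.64, 25.47 and 24.53 FPKM in M5. All 12 libraries of the virus groups were above all 3 Con libraries, although MNC replicate 1 exceeded the highest Con library only narrowly. Of all genes tested, 6.25% had that pattern, and of the 8 junction genes Cldn3 alone. Con had the lowest mean and did not overlap M5, the next group, while M5, M3, MNC and M1 overlapped their neighbours in that order. The GC content of Cldn3 transcripts (62.7%) was above that of 98.9% of genes tested, whereas the other 7 genes lay between 44.5% and 52.9%. The last 40 bases of its exons lie within Wbscr25 on the opposite strand, and whether the libraries kept strand is not given in the sources used here. Of the exon bases of Ctnnb1, 3310 lie within the span of Ulk4 and 189 within that of 4930593C16Rik, both on the opposite strand, and without strand, reads from there could not be assigned to 1 gene.

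The upstream sequences of the genes that carry these patterns, Gja1 (lower), Cldn11, Ctnnb1 and Ocln (lower outside M5 replicate 3) and Cldn3 (higher), are shown so that they can be compared. They are the 250 bases before the RefSeq transcription start in GRCm38.p6, the reference of the mm10 build named in the submitters' processing notes. In the order printed they lie at chr10:56377050-56377299, chr3:31149670-31149919 and chr9:120933150-120933399 on the plus strand, chr13:100552719-100552968 on the minus strand and chr5:134985964-134986213 on the plus strand. Ctnnb1 and Ocln each have a second start in the table, which is not shown. Capitals mark 3 motifs searched on both strands, with no overlap between them here: the GC box (GGGCGG), the CCAAT box (CCAAT) and the AP-1 site (TGAGTCA).
Gja1: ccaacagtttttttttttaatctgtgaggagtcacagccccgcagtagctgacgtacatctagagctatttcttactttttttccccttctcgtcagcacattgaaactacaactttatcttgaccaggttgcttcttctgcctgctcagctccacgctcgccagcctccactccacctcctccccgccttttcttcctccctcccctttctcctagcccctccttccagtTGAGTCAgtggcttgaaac
Cldn11: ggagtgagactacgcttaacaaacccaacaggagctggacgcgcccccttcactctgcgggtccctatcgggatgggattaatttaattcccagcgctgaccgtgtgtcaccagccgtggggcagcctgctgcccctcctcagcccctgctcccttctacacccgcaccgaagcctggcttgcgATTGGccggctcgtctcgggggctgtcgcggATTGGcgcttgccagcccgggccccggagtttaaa
Ctnnb1: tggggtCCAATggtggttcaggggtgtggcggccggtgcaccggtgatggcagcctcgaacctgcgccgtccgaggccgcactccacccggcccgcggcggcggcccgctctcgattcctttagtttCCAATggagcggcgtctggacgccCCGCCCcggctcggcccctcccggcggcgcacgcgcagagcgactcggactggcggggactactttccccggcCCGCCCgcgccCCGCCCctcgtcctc
Ocln: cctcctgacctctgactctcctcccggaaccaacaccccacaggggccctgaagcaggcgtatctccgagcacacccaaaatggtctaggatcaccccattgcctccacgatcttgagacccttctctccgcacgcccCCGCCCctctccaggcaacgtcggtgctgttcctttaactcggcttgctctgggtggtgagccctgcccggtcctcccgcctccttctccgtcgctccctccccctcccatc
Cldn3: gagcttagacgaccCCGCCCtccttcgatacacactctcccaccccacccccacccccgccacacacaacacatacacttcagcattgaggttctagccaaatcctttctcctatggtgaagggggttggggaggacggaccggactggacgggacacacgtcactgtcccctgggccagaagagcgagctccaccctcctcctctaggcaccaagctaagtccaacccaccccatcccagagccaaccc
Among these 5 sequences, Ctnnb1 held 3 GC boxes and 2 CCAAT boxes, Cldn11 held 2 CCAAT boxes, Ocln and Cldn3 each held 1 GC box and Gja1 held 1 AP-1 site. Of 32851 mouse promoters of the same length, 32.7% held a GC box, 33.8% a CCAAT box and 4.46% an AP-1 site. No motif was common to Gja1, Cldn11, Ctnnb1 and Ocln. A match to these letters is a description of the sequence and not a bound site.

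ZO-1 and junctional adhesion molecule A showed no such separation of Con. Tjp1 (chromosome 7, 65296165 to 65527850, minus strand) was listed at 20.95, 20.28 and 18.68 FPKM in Con, at 22.03, 20.26 and 18.12 FPKM in MNC, at 19.01, 21.28 and 21.12 FPKM in M1, at 20.14, 19.97 and 21.21 FPKM in M3 and at 22.60, 21.73 and 23.43 FPKM in M5. Con, MNC, M3 and M1 overlapped in that order, and the M5 libraries were above every M1, M3 and Con library, while MNC replicate 1 lay between M5 replicates 2 and 1. F11r (chromosome 1, 171437561 to 171464593, plus strand), an immunoglobulin-like adhesion protein at the tight junction, was at 11.84, 11.66 and 10.04 FPKM in Con and at 10.40, 10.14 and 9.49 FPKM in MNC. It was at 10.60, 9.41 and 8.94 FPKM in M1, at 7.80, 10.22 and 8.84 FPKM in M3 and at 8.55, 10.42 and 15.43 FPKM in M5. No 2 neighbouring groups were free of overlap for F11r, and M5 replicate 3 was again the highest library. Cldn11, F11r, Ctnnb1 and Tjp1 had their highest value in M5 replicate 3, which is 4 of the 8 junction genes, and the same was true of 26.5% of all genes tested.

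N-cadherin, the cadherin that joins Sertoli cells to each other and to germ cells, was scattered within groups. Cdh2 (chromosome 18, 16588877 to 16809246, minus strand) was listed at 21.08, 22.36 and 21.59 FPKM in Con, at 27.22, 17.22 and 18.50 FPKM in MNC and at 18.57, 27.29 and 14.13 FPKM in M1. It was at 15.20, 20.92 and 17.23 FPKM in M3 and at 17.12, 13.22 and 17.92 FPKM in M5. MNC replicate 1 and M1 replicate 2 were above all Con libraries, and the other 10 libraries of the virus groups were below them all. Con did not overlap M3 or M5, while MNC and M1 overlapped every other group.

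MNC, the group of the control virus, was set beside the libraries labelled control. Since the sources used here do not give whether Con was injected, the treatments of these groups cannot be set apart beyond their labels. Each comparison below was fitted across 14514 genes with limma on log2(FPKM + 1), a scale on which changes of low genes are understated, and a gene passed when its Benjamini-Hochberg adjusted p over all genes was under 0.05. Cldn11, Ctnnb1 and Gja1 passed, all lower in MNC, which is 3 of 8, beside 20.4% of all genes in either direction and 12.4% lower. With each library centred on its median gene, the split over all genes turned from 1801 lower and 1166 higher to 420 lower and 1449 higher. Gja1 fell from 21.17 ± 3.342 to 14.92 ± 0.8935 FPKM (SD, n = 3), a log2 difference of -0.47 (SE 0.119, limma adjusted p = 0.0411). Cldn11 fell from 54.75 ± 5.82 to 42.40 ± 1.036 FPKM, a log2 difference of -0.36 (SE 0.0809, limma adjusted p = 0.0337). Ctnnb1 fell from 46.75 ± 2.66 to 36.74 ± 3.797 FPKM, a log2 difference of -0.34 (SE 0.0844, limma adjusted p = 0.0386). Ocln, at 2.407 ± 0.2984 and 1.703 ± 0.06658 FPKM, had a log2 difference of -0.33 and lay at the threshold without passing it (limma adjusted p = 0.05001). Cldn3, at 16.72 ± 4.122 FPKM in Con and 26.07 ± 5.509 FPKM in MNC, had the largest log2 difference of the 8, 0.62 (95% interval 0.0728 to 1.16), and did not pass (limma adjusted p = 0.0944). For Tjp1 the difference was 0.01 (95% interval -0.195 to 0.212), for Cdh2 -0.07 (-0.466 to 0.322) and for F11r -0.14 (-0.336 to 0.0493). The median difference of the 8 genes was -0.24, beside -0.10 over all genes tested.

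These calls were close to the threshold. None of the 3 genes passed once each library was centred on its median gene (limma adjusted p from 0.0524 to 0.0673), once it was centred on the Sertoli cell markers (0.104 to 0.21), or without the filter on low values (0.0656 to 0.086), although all 3 stayed lower in MNC. None of the 8 passed when MNC replicate 2, MNC replicate 3, Con replicate 1 or Con replicate 2 was left out, and without Con replicate 1 only 8 of all genes tested did. In bulk testis RNA, fewer cells of a type and less RNA per cell cannot be told apart. The 16 Sertoli cell markers summed to between 881 and 978 FPKM in Con and between 759 and 871 FPKM in MNC, 15 of the 16 were lower in MNC and 2 of them passed, with a median log2 difference of -0.21. With centring on these markers the median difference of the 8 junction genes was -0.03, beside 0.11 over all genes tested. Such centring shifts all genes of a library alike, so the gap between the 8 genes and all genes stayed as it was. The 10 markers of elongating spermatids, among them protamines, summed to between 12400 and 23600 FPKM in Con and between 25700 and 32100 FPKM in MNC, all 10 were higher in MNC and 5 passed. The 10 spermatocyte markers were all lower in MNC, 5 of them passed, and they summed to between 669 and 700.0 FPKM in Con and between 541 and 562 FPKM in MNC (median log2 difference -0.32). Of the 4 epididymal markers tested, of 12, 3 were lower in MNC and 1 passed, with a median log2 difference of -0.31 and sums of 36.6 to 56.5 FPKM in Con and 21.3 to 23.4 FPKM in MNC. No Sertoli cell, elongating spermatid or spermatocyte marker fell below the filter. Their part in the results was not tested.

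The knockdown groups were also set against Con, an alternative to the MNC control, and since the same 3 Con libraries stand in each of these comparisons they are not independent of one another. In M1 against Con 5 of 8 genes passed, beside 34.2% of all genes in either direction and 23.9% lower. These were Gja1 (log2 difference -0.53, limma adjusted p = 0.0182), Ocln (-0.39, 0.0307), Ctnnb1 (-0.37, 0.0115) and Cldn11 (-0.34, 0.0264), all lower, and Cldn3, which rose by 0.72 (SE 0.177, limma adjusted p = 0.0256). In M3 against Con 3 of 8 passed, all lower, beside 22.1% of all genes in either direction and 15.1% lower: Gja1 (-0.73, limma adjusted p = 0.0283), Ctnnb1 (-0.40, 0.0272) and Cldn11 (-0.34, 0.0475). Gja1 in M3, with a mean of 12.37 ± 1.819 FPKM (SD, n = 3), was the lowest group mean of connexin 43. In M5 against Con only Cdh2 passed (-0.42, limma adjusted p = 0.0438), beside 21.7% of all genes in either direction and 12.3% lower. There Gja1 was at -0.43 (limma adjusted p = 0.0596) and Cldn11 at -0.04 with a wide 95% interval (-0.521 to 0.444). That comparison turned on M5 replicate 3. Without it, in a fit added after the data were seen, 4 of the 8 passed, all lower, beside 36.3% of all genes in either direction and 24.0% lower: Cdh2 (-0.50, limma adjusted p = 0.0216), Gja1 (-0.48, 0.0484), Ocln (-0.47, 0.0284) and Ctnnb1 (-0.30, 0.0174). Cldn11 was then at -0.27 (limma adjusted p = 0.107), F11r at -0.22 (0.17), Cldn3 at 0.49 (0.122) and Tjp1 at 0.14 (0.139). With that library, Ocln was at -0.31, Ctnnb1 at -0.12, Cldn3 at 0.52 and Tjp1 at 0.17, and none of these 4 passed.

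**Figure D2:**
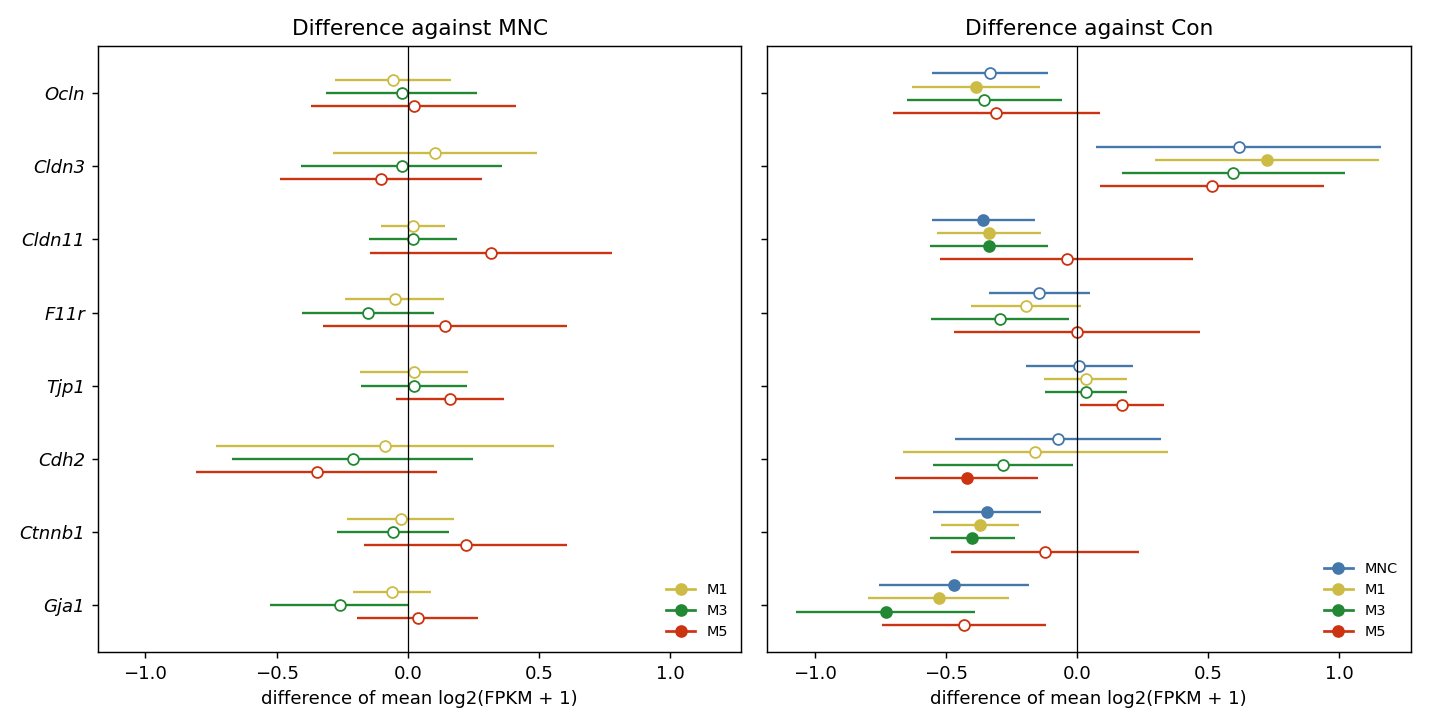
Difference of mean log2(FPKM + 1) (x axis) for the 8 junction genes (y axis), M1, M3 and M5 against MNC on the left and MNC, M1, M3 and M5 against Con on the right. Points are limma estimates with 95% intervals (3 libraries against 3), filled where the adjusted p was under 0.05: none on the left, and on the right 3 genes for MNC, 5 for M1, 3 for M3 and 1 for M5.

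M5 was set against MNC to ask whether knockdown of the M5 receptor changed these genes beyond the control virus. None of the 8 passed, beside 5.65% of all genes tested. None had an unadjusted p under 0.05 in limma, beside 3620 of the 14514 genes tested. The largest differences were those of Cdh2, at -0.35 (95% interval -0.806 to 0.113, limma adjusted p = 0.316), and Cldn11, at 0.32 (-0.144 to 0.78, 0.359). Ctnnb1 was at 0.22 (-0.165 to 0.608), Tjp1 at 0.16 (-0.0441 to 0.368) and F11r at 0.14 (-0.323 to 0.608). Gja1 was at 0.04 (-0.193 to 0.269), Ocln at 0.02 (-0.368 to 0.413) and Cldn3 at -0.10 (-0.487 to 0.282). The positive values rested largely on 1 library. Without M5 replicate 3, the difference was 0.09 for Cldn11, 0.04 for Ctnnb1, -0.08 for F11r, -0.14 for Ocln and -0.02 for Gja1, and none of the 8 passed. Tjp1 changed little without it, to 0.14. In that library the Sertoli cell markers summed to 1195 FPKM, beside 793 and 814 FPKM in the other M5 libraries, and the 8 macrophage markers to 184.3 FPKM, beside 79.98 and 96.9 FPKM. Of the 7 macrophage markers tested, 6 were higher in M5 than in MNC and none passed. The red blood cell markers moved most: all 5 tested, of 7, were higher in M5, 3 passed, the median log2 difference was 3.04, and they summed to between 148 and 491 FPKM in M5 and between 21.9 and 35.5 FPKM in MNC. Of the 10 spermatocyte markers, 6 were higher and 4 lower in M5, and 2 passed, both higher. Their sums were 594 to 669 FPKM in M5 and 541 to 562 FPKM in MNC. Of the 10 round spermatid markers 1 passed, and of the 10 elongating spermatid markers 1, both lower in M5. In each of these 2 lists 5 markers were higher and 5 lower. The part of these markers in the M5 values was not tested. The median difference of the 8 genes was 0.09, beside 0.03 over all genes tested. Without M5 replicate 3 it was -0.05, beside -0.02 over all genes.

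M1 and M3 were set against MNC with the same 3 MNC libraries as control. In M1 against MNC none of the 8 genes passed, nor did any gene tested (0.0%). No member had an unadjusted p under 0.05 in limma, beside 862 of the 14514 genes tested. Their differences ran from -0.09 for Cdh2 to 0.11 for Cldn3, and the narrowest interval was that of Cldn11 (0.02, 95% interval -0.102 to 0.144). In M3 against MNC none of the 8 passed either, beside 0.00689% of all genes, which is 1 gene. None had an unadjusted p under 0.05 in limma, beside 1369 of the 14514 genes tested. Gja1 was the furthest from 0, at -0.26 (95% interval -0.524 to 0.00666, limma adjusted p = 0.518). Cldn11 was at 0.02 (-0.147 to 0.189) and Tjp1 at 0.02 (-0.178 to 0.227).

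M5 was also compared directly with M1 and with M3, whereas M1 was not compared with M3. None of the 8 genes passed in M5 against M1, beside 6.75% of all genes tested, or in M5 against M3, beside 0.0138%. None had an unadjusted p under 0.05 in limma in either, beside 3689 and 2077 of the 14514 genes tested. Tjp1, whose groups did not overlap in these 2 comparisons, was 0.14 higher in M5 than in M1 (limma adjusted p = 0.26) and 0.14 higher than in M3 (0.383). Cldn3 was 0.21 lower in M5 than in M1 (limma adjusted p = 0.198), and Gja1 was 0.30 higher in M5 than in M3 (limma adjusted p = 0.35). Cldn11 was 0.30 higher in M5 than in M1 (limma adjusted p = 0.382), which became 0.07 without M5 replicate 3. Ctnnb1, whose groups did not overlap in M5 against M3, was 0.28 higher in M5 (limma adjusted p = 0.409), and 0.10 higher without that library. How many of all genes tested had no overlap in these comparisons was not counted.

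The members' levels were then related to the Sertoli cell markers, none of which is a member, over single libraries. The marker level is the mean log2(FPKM + 1) of the 16 markers, and 32 relations, of the 8 genes to 2 marker lists over 15 or 12 libraries, were tested with 100000 permutations each. Over the 15 libraries Cldn11 (Pearson r = 0.944, permutation p = 3e-05, adjusted 0.00024; Spearman rho = 0.864, p = 0.0001), F11r (r = 0.917, p = 1e-05, adjusted 0.00016; rho = 0.850, p = 0.00013) and Ctnnb1 (r = 0.912, p = 1e-05, adjusted 0.00016; rho = 0.800, p = 0.0006) followed the markers. Here 1e-05 is the smallest p that the permutations can give. The permutations moved libraries freely between groups, so these p-values do not set differences between groups aside. Ocln followed the markers too (r = 0.750, permutation p = 0.00098, adjusted 0.0045, rho = 0.781, p = 0.00087). How many of all genes tested had r as high, over 15 or 12 libraries, was not counted, so these relations are not shown to be particular to junction genes. Without Con replicate 2 and M5 replicate 3, the libraries farthest from the median of the markers, r was 0.850 for Cldn11, 0.779 for F11r, 0.789 for Ctnnb1 and 0.808 for Ocln. Gja1 was less tied to the markers (r = 0.594, permutation p = 0.025, adjusted 0.054; rho = 0.631, p = 0.013, adjusted 0.048), and r was 0.706 without those libraries. Tjp1 (r = 0.364, permutation p = 0.19; rho = 0.136, p = 0.63), Cdh2 (r = 0.126, permutation p = 0.66; rho = 0.318, p = 0.25) and Cldn3 (r = -0.413, permutation p = 0.12; rho = -0.400, p = 0.14) did not pass. Without those libraries r was -0.02 for Tjp1, 0.207 for Cdh2 and -0.493 for Cldn3.

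Apart from M5 replicate 3, every library of the virus groups was lower in these markers than every Con library. The relation was therefore also taken within the 12 libraries of the virus groups. There r was 0.954 for Cldn11 (permutation p = 0.0032, adjusted 0.012; rho = 0.741, p = 0.0086, adjusted 0.038), 0.914 for F11r (p = 0.00089, adjusted 0.0045; rho = 0.846, p = 0.00083, adjusted 0.0046), 0.912 for Ctnnb1 (p = 0.0076, adjusted 0.02; rho = 0.608, p = 0.04, adjusted 0.087) and 0.761 for Ocln (p = 0.0076, adjusted 0.02; rho = 0.606, p = 0.041, adjusted 0.087). By ranks, the relations of Ctnnb1 and Ocln thus did not pass. Without M5 replicates 2 and 3, r was 0.450 for Cldn11, 0.373 for Ctnnb1, 0.474 for Ocln and 0.653 for F11r, so that F11r weakened least of these genes. Of those 2 libraries only M5 replicate 3 stood apart in the marker level, at 0.321 relative to the Con mean. M5 replicate 2 was at -0.136, as was M1 replicate 1. No r was taken without M5 replicate 3 alone. Gja1, Tjp1, Cdh2 and Cldn3 did not pass there, with r of 0.459, 0.526, -0.02 and -0.07 and permutation p of 0.15, 0.092, 0.93 and 0.81. For the elongating spermatid markers, Con did not overlap the other groups and no r over all 15 libraries is given. Within the 12 libraries Cldn3 rose with these markers (r = 0.668, permutation p = 0.018, adjusted 0.041; rho = 0.664, p = 0.022, adjusted 0.063), and r was 0.668 also without MNC replicate 1 and M5 replicate 3. Ctnnb1 fell with them (r = -0.723, permutation p = 0.0094, adjusted 0.023; rho = -0.301, p = 0.34), a relation that ended without those libraries (r = -0.01).

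**Figure D3:**
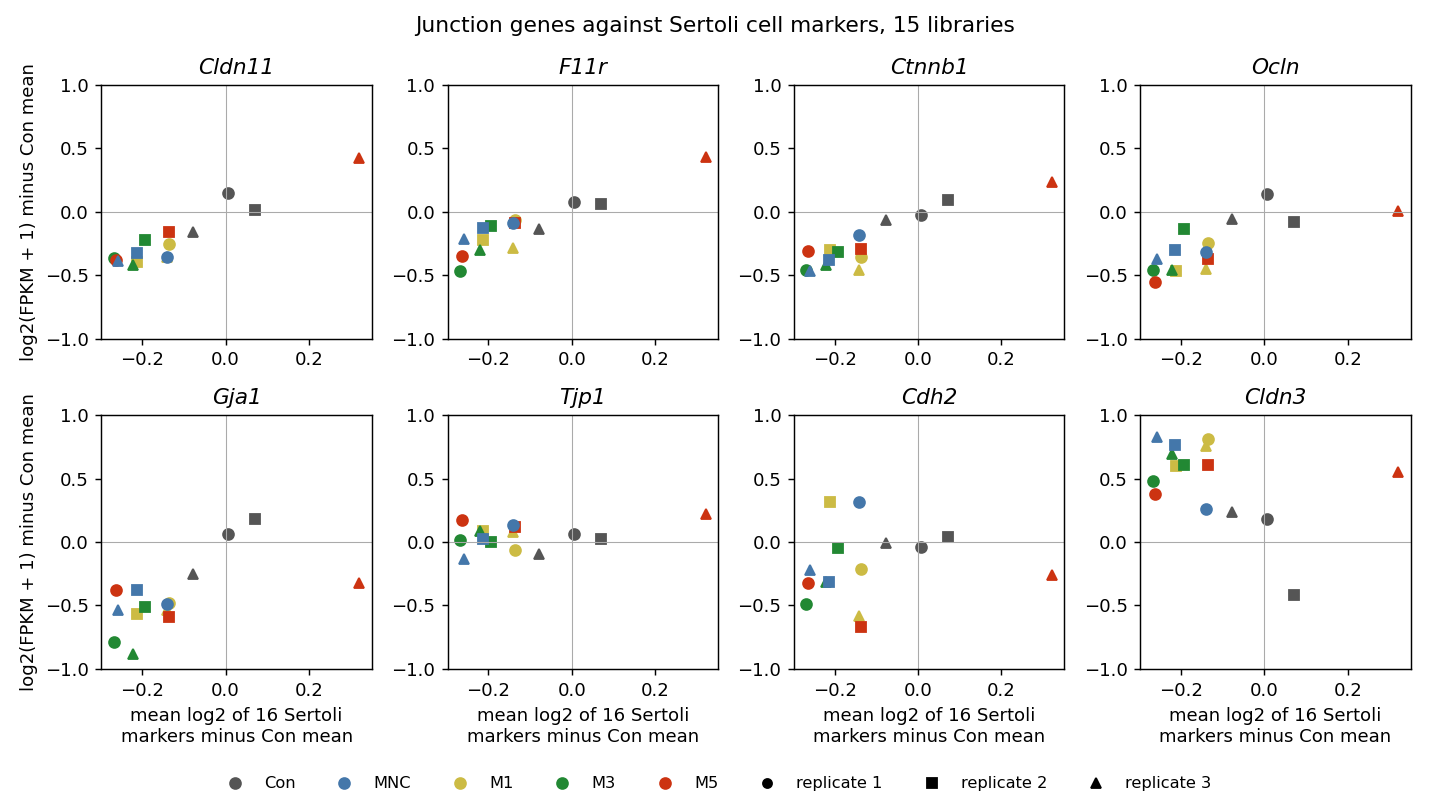
log2(FPKM + 1) of each junction gene minus its Con mean (y axis) against the mean log2(FPKM + 1) of 16 Sertoli cell markers minus its Con mean (x axis), 1 point for each of 15 libraries, coloured by group. Cldn11, F11r, Ctnnb1 and Ocln follow the markers (r = 0.944, 0.917, 0.912 and 0.750), with M5 replicate 3 at the upper right, while Cldn3 and Gja1 separate Con from the other groups.

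Among each other the 8 genes fell into a similar arrangement over the 15 libraries, which share group, depth and tissue make-up, so that these r are given as a description. Cldn11, F11r, Ctnnb1 and Ocln had r between 0.778 and 0.905 in their 6 pairs, the highest being Cldn11 with F11r. Gja1 was at 0.593 to 0.735 with these 4 genes and at -0.734 with Cldn3. Tjp1 and Cdh2 had r of -0.103 to 0.378 with every member other than Cldn3, and -0.119 and -0.433 with Cldn3. Outside the list, the genes most like Cldn11 were Ttyh1 (r = 0.970), Fez2 (0.968) and Myo1d (0.963), and those most like Ctnnb1 were Lman1 (0.981), Zmpste24 (0.979) and Eif4a1 (0.974). For F11r they were Atp1b1 (0.970), Slc44a2 (0.968) and Rab12 (0.957), and for Ocln Qsox1 (0.948), Gpr37 (0.937) and Sema7a (0.936). For Gja1 they were Sfpq (0.945), Mettl16 (0.935) and BC055324 (0.929), and for Cldn3 Eva1c (0.976), Oxct2a (0.955) and Cystm1 (0.952). Tjp1 was nearest to Pdgfd (0.918), Pigx (0.888) and Pigg (0.886), and Cdh2 to Tep1 (0.878), Ddx56 (0.863) and Trappc1 (0.835), lower values than for the other members.

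Beyond the 8 genes, 90 further junction genes were taken from the table, of which 51 had a mean of at least 1 FPKM and were tested. In MNC against Con 11 of the 51 passed, which is 21.6% beside 20.4% of all genes, 7 lower and 4 higher. The lower ones with the largest differences were Lsr (-0.54, limma adjusted p = 0.0162), which marks contacts of 3 cells, the alpha-catenin Ctnna1 (-0.47, 0.0269), the scaffold Magi3 (-0.42, 0.036), cingulin (Cgn, -0.37, 0.0424) and the p120 catenin Ctnnd1 (-0.31, 0.0216). Jam3 (-0.27) and Gjc1 (-0.25) were also lower. Without Con replicate 1 none of the 51 passed, and 1 to 5 did without MNC replicate 2, MNC replicate 3, Con replicate 2 or Con replicate 3. The higher ones were Nectin4 (1.21, limma adjusted p = 0.0312), an adhesion protein, the desmosomal plakophilin Pkp1 (0.50, 0.0256), the polarity protein Pard6a (0.34, 0.034) and the angiomotin-like Amotl1 (0.28, 0.037). Nectin4 was under 1 FPKM in every Con library. By group, the median log2 difference was -0.27 for the 5 other tight junction membrane proteins, -0.25 for the 7 other connexins and pannexins, -0.06 for the 19 scaffolds and polarity proteins, -0.05 for the 3 other claudins, 0.04 for the 13 other cadherins, nectins and catenins and 0.03 for the 4 desmosome genes. Of the 15 other claudins in the table, only Cldn5, Cldn13 and Cldn12 reached the filter, with means of 4.95, 3.89 and 2.79 FPKM over the 15 libraries. Ybx3, a Y-box protein that binds ZO-1 and is abundant in germ cells, and Nectin3, the nectin of spermatids, were the most abundant, at 918.0 and 188.0 FPKM. Next to them came Sympk (67.7 FPKM) and Pard6a (21.6 FPKM) among the scaffolds and polarity proteins, and Nectin2 (26.1 FPKM) and Jup (21.0 FPKM) among the cadherins, nectins and catenins. The other tight junction membrane proteins were led by Jam3, Lsr and Jam2 (17.9, 13.4 and 5.02 FPKM), the connexins by Gjc1, Gja6 and Gjd3 (7.43, 4.03 and 2.11 FPKM) and the desmosome genes by Pkp4, Pkp1 and Pkp3 (5.19, 1.93 and 1.81 FPKM).

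In M5 against MNC 2 of the 51 passed, which is 3.92% beside 5.65% of all genes, both lower. Pard6a was listed at 16.37, 13.32 and 14.64 FPKM in M5 and at 27.71, 23.36 and 26.38 FPKM in MNC, a log2 difference of -0.77 (SE 0.101, limma adjusted p = 0.0181). Plakoglobin (Jup), the catenin shared by desmosomes and adherens junctions, was listed with 15.07, 14.77 and 17.57 FPKM in M5 and with 22.06, 24.48 and 27.05 FPKM in MNC, a log2 difference of -0.60 (SE 0.104, limma adjusted p = 0.0323). In both, every M5 library was also below every Con library, an order whose share over all genes was not counted. Their differences were as large without M5 replicate 3 (-0.76 and -0.68). Neither passed with centring on the Sertoli cell markers or with a GC trend removed, and leaving out 1 library at a time ended the call of Pard6a in 3 cases and that of Jup in 4. None of the 51 passed in M1 against MNC, M3 against MNC or M5 against M3, beside 0.0%, 0.00689% and 0.0138% of all genes. In limma, 0, 1 and 5 of the 51 had an unadjusted p under 0.05, beside 862, 1369 and 2077 of the 14514 genes tested. In M1 against Con 20 passed (15 lower), which is 39.2% beside 34.2% of all genes. In M3 against Con 9 did (8 lower), 17.6% beside 22.1%, and in M5 against Con 7 (all lower), 13.7% beside 21.7%, the last becoming 13 without M5 replicate 3. The medians of the 51 genes lay within 0.05 of those of all genes tested in every comparison.

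**Figure D4:**
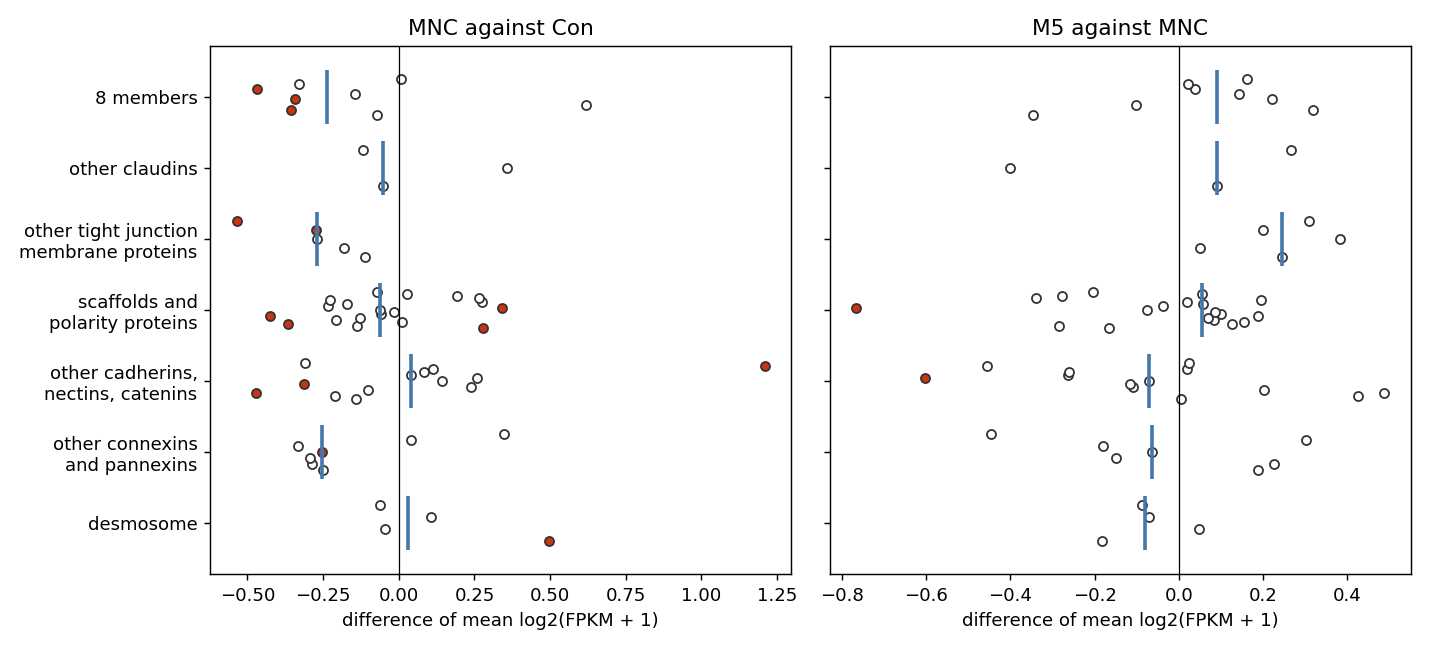
Difference of mean log2(FPKM + 1) (x axis) for the 8 members and 6 groups of further junction genes (y axis), MNC against Con on the left and M5 against MNC on the right. Each circle is a gene tested, filled where its limma adjusted p was under 0.05, and the vertical bars are medians; Pard6a and Jup are the 2 filled circles on the right.

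Protein assays of the study covered occludin, claudin-11, junctional adhesion molecule A, ZO-1, E-cadherin, p120 catenin, connexin 43 and connexin 37. It reports all 8 proteins as decreased by M5 knockdown in a spermatogonial and a Sertoli cell line. In testis it reports a changed location of occludin, E-cadherin, connexin 37 and connexin 43. The values here are RNA of whole testis, another measure, and do not test those protein results. Of the corresponding 8 genes, Cdh1 (E-cadherin) stayed under the filter, with means of 0.317 FPKM in M5 and 0.293 FPKM in MNC, and an exact permutation test gave p = 1.0 (two-sided, the smallest possible being 0.1). Gja4 (connexin 37), a connexin also made by endothelial cells, had 1.24, 1.01 and 1.35 FPKM in M5, MNC had 0.90, 0.89 and 0.99 FPKM, and the gene did not pass (log2 difference 0.19, limma adjusted p = 0.351). Ctnnd1 (p120 catenin) had 14.87, 15.89 and 19.80 FPKM in M5, beside 18.23, 19.04 and 17.40 FPKM in MNC (-0.12, limma adjusted p = 0.574). None of the 7 genes tested passed in M5, M1 or M3 against MNC with limma, beside 5.65%, 0.0% and 0.00689% of all genes. Against Con, Ctnnd1 was lower in MNC (-0.31, limma adjusted p = 0.0216), M5 (-0.43, 0.0332), M1 (-0.35, 0.0104) and M3 (-0.45, 0.0288), comparisons that share the Con libraries.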

How the data were processed

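RNA of 15 mouse testis libraries (5 groups of 3) was analysed from the 1 table of FPKM values that the authors deposited for 23510 Entrez Gene IDs. Per the study's methods, oligo(dT) mRNA was sequenced on an Illumina instrument and aligned with SOAPaligner, and the submitters' processing notes name build mm10. Read counts and strand setting were not given in the sources used here, so depth is unknown and no count model was used; the number of libraries limits the precision. Symbols came from a RefSeq table (89.9% of IDs matched).

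Values were taken as log2(FPKM + 1). Genes with a mean of at least 1 FPKM over the 15 libraries (14514) were fitted with limma 3.58.1 (lmFit and eBayes with trend, R 4.3.3), the fit holding the 2 groups compared and no covariate, two-sided, with Benjamini-Hochberg adjustment over all genes. The fit was tested on simulated data. The members, lists, tests and alternatives were chosen with earlier results of these data known. All 8 members are named; of 90 further junction genes, those that passed (the 5 with the largest differences in each direction) and the most abundant (1 more is not reported here); and, for each member, the 3 genes with the highest Pearson r. The alternatives were another pseudocount, filters, scalings, fits, control group, a replicate block and leaving out each library. Removal of a GC trend and M5 without replicate 3 against Con were added with the data in view. Same-numbered libraries were not paired: their deviations from group means correlated at -0.399 to 0.177.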

Additional observations from a re-analysis of the deposited data

Results flagged for a closer look

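None of the 8 junction genes passed in M5 against M1 or in M5 against M3, the direct comparisons made between knockdown groups. Of the further junction genes, 4 did so in M5 against M1 (limma, adjusted p under 0.05), all lower in M5: Pard6a with a log2 difference of -0.62 (adjusted p = 0.028), Cldn13 with -0.56 (0.0443), Jup with -0.50 (0.0347) and Sympk with -0.23 (0.0396). In each of the 4, the 3 M5 libraries lay below the 3 M1 libraries, an order whose share over all genes was not counted. The 4 genes are 7.84% of the 51 tested, beside 6.75% of all genes. None of the 4 passed with centring on the Sertoli cell markers, with a GC trend removed, without the variance trend, or when M5 replicate 1, M5 replicate 2 or any M1 library was left out. In M5 against M3 none of the 51 passed. Groups of 3 are too small for a test of single libraries.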

How the results depend on the processing

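The 8 junction genes gave 48 differences in the 6 comparisons. Of the 45 that did not pass, 78 of 746 values under an alternative changed sign and 17 passed, 13 of these with Con in place of MNC. The other 4 were Ocln with a pseudocount of 0.1 or without the variance trend, Cldn3 with all 5 groups in one fit and Cdh2 without MNC replicate 1, all in MNC against Con. With Con in place of MNC the number of genes that passed was 1 for M5, 5 for M1 and 3 for M3, against 0 each, and without M5 replicate 3 as well it was 4 for M5. In MNC against Con the 3 calls became 0 without the filter, with centring on the median gene, with centring on the Sertoli cell markers and with a replicate block, and 0 to 2 when 1 library was left out; the cause was not tested. Replicate numbers did not pair the libraries, and with the block the adjusted p of Cldn11, Ctnnb1 and Gja1 was 0.0616, 0.0695 and 0.0587. In the other 5 comparisons no other alternative gave a call among the 8. The call of Cldn11, Ctnnb1 and Gja1 was lost in 10, 11 and 10 of 16 alternatives.

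Directions turned, with a call, only with Con in place of MNC, which is another comparison and not another processing of the same one. In M1 this held for Cldn11 (-0.34), Ctnna1 (-0.47), Cgn (-0.32), Magi3 (-0.32), Jam3 (-0.20), Pkp1 (0.46), Amotl1 (0.21) and Sympk (0.15). In M3 it held for Cldn11 (-0.34) and Ctnna1 (-0.45), and in M5, without replicate 3 as well, for Ocln (-0.47), Ctnnb1 (-0.30), Gja1 (-0.48), Lsr (-0.58) and Cgn (-0.41). Against MNC no member passed: Cldn11 was at 0.02 in M1 and in M3, and Ocln, Ctnnb1 and Gja1 at 0.02, 0.22 and 0.04 in M5. In MNC against Con, Cldn11, Ocln, Ctnnb1 and Gja1 were at -0.36, -0.33, -0.34 and -0.47. The median of the 8 in M5 against MNC turned from 0.09 to -0.09 with centring on the Sertoli cell markers and to -0.05 without M5 replicate 3. The median over all genes tested turned too, from 0.03 to -0.15 and to -0.02. Centring shifts all genes of a library alike, so that turn is no change of the 8 genes relative to the others. Calls among the 51 further genes in M5 against MNC ranged from 0 to 13 over the alternatives, and in MNC against Con from 0 to 12. Over all genes, 820 passed in M5 against MNC and 14 with the block, and 2967 in MNC against Con and 10 with the block. A mean of at least 5 FPKM left Ocln untested. Read depth is unknown, and 3 libraries a group limit what could be detected.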
